A study of Rattus norvegicus with 8 samples.

Results

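The Zfp36 family of mRNA decay factors was examined in a fast-twitch leg muscle, the tibialis anterior, from 8 adult Sprague-Dawley rats, 4 hyperthyroid and 4 control. The family was selected on results of the hyperthyroid against control contrast of these same arrays. Its 3 genes, of 14217 with a probe set, were then taken by name, as every probe set whose single platform gene symbol was Zfp36, Zfp36l1 or Zfp36l2. This gave 5 of the 31042 probe sets that are not array controls. Zfp36 and Zfp36l1 had 1 probe set each and Zfp36l2 had 3. A filter on low values, a mean log2 value above the 40th percentile of all probe sets, was passed by 3 of the 5, 1 for each gene, among 18625 probe sets and 10200 genes that passed.

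Hyperthyroid rats had received 25 µg of triiodothyronine (T3, the active thyroid hormone) per 100 g of body weight by intraperitoneal injection every 2 days for 6 weeks, and were killed 24 hours after the last injection. Control rats were untreated, and a vehicle injection is not mentioned in the labels. Initial weights were 200 ± 40 g. Each group held 3 males and 1 female, which the labels do not assign to arrays. Each array held RNA of 1 rat, so n is 4 animals a group throughout. Whole muscle was used, in which fewer cells of a type and less RNA per cell cannot be told apart.

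Zfp36, also known as tristetraprolin, Zfp36l1 and Zfp36l2 are RNA-binding proteins with paired CCCH zinc fingers. They bind AU-rich elements in the 3' ends of short-lived messages, such as those of cytokines, growth regulators and cell cycle genes, and bring the CCR4-NOT complex, which shortens the poly(A) tail and starts decay. The p38 kinase pathway acts on the family through the kinase MK2, whose phosphorylation of Zfp36 creates docking sites for 14-3-3 proteins and restrains decay. Zfp36 itself is an immediate-early gene, switched on within minutes by serum and stress. In resting muscle stem cells Zfp36 is known to hold back the message of Myod1, the myogenic regulator.

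The members differ in the sequence just upstream of the transcription start, which is shown here because Zfp36l1 alone of the 3 had groups that did not overlap. Whether these sequences have any part in that difference was not tested. The 150 bases before the start that the RefSeq table uses (GRCr8) are printed 5′ to 3′ on the gene's own strand. Capitals mark a CArG box, the binding motif of serum response factor, in Zfp36, and the TATA-type motifs TATAAA in Zfp36l1 and TATATA in Zfp36l2. Only these exact TATA-type letters were searched, so a looser match, in Zfp36 for instance, was not looked for. The regions are chr1:92799109-92799258 on the minus strand for Zfp36, chr6:104668691-104668840 on the minus strand for Zfp36l1 and chr6:16242472-16242621 on the plus strand for Zfp36l2.
Zfp36: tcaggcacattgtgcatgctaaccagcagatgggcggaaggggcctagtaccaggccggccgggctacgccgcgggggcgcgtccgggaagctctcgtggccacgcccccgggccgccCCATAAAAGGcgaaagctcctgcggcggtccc
Zfp36l1: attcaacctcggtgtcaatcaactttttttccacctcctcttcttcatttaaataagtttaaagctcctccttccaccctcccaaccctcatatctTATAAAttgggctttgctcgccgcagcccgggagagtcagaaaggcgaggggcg
Zfp36l2: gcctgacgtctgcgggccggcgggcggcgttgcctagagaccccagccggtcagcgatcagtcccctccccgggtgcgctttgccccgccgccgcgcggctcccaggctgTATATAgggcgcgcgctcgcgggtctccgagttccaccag

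Over the 250 bases before the start, searched on both strands, the CArG box of Zfp36 lies from 32 to 23 bases upstream, and 1.5% of 33469 rat promoter windows of this length hold one. It shares 1 base with a CCGCCC motif, the core of a GC box, which 30.5% of windows hold. TATAAA lies from 54 to 49 bases upstream in Zfp36l1 (12.9% of windows), where it shares 1 base with a CCAAT motif on the other strand (34% of windows). TATATA lies from 40 to 35 bases upstream in Zfp36l2 (5.45% of windows). The letters AGGTCA, a core motif of thyroid hormone receptors (14.1% of windows), are in none of the 3 windows, nor is the direct repeat of that motif known as DR4 (0.00299% of windows). So few windows hold a DR4 that its absence says little. Looser matches to AGGTCA, and bases beyond these windows, were not searched. TGACGT, part of a cyclic AMP response element, is found in Zfp36l2 only (6.95% of windows). Bases G and C make up 65.2% of the window of Zfp36, 50.4% of that of Zfp36l1 and 73.6% of that of Zfp36l2. The annotated span of Zfp36l1 reaches 1125 bases further upstream than the start used here, so its window lies within the gene as annotated.

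The arrays themselves were not all alike. The trimmed mean intensity was 150 on every array, while the median ran from 38.7 to 54.8. On the first principal component of all kept probe sets control replicate 11 stood at 94.7 and the other arrays between -25.3 and 23.9, and on the second control replicate 9 stood at 87.1 and the others between -26.8 and 8.96. Muscle markers were abundant, with 8 of 8 myofibre markers past the filter. Across all probe sets, 6 of 18625 (0.0322%) were called at an adjusted p under 0.05 (limma with Benjamini-Hochberg adjustment), all 6 higher in the hyperthyroid group. Of the 10200 genes, 7 were called, which is 0.0686%, none of them lower (0%).

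Zfp36l1 was the member that set the groups apart. Its intensity was 1755, 1190, 1409 and 1138 on hyperthyroid replicates 1, 2, 3 and 5. It was 3377, 2377, 2326 and 3681 on control replicates 7, 8, 9 and 11. Every hyperthyroid array lay below every control array, and the gap between the highest hyperthyroid and the lowest control array was 571. The group means were 1373 ± 280 and 2940 ± 691 (SD, n = 4 each), a log2 difference of -1.09 ± 0.18 (limma standard error) or a 2.13-fold lower level. Set against the control mean, the hyperthyroid arrays stood at 38.7% to 59.7% and the control arrays at 79.1% to 125%.

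**Figure D1:**
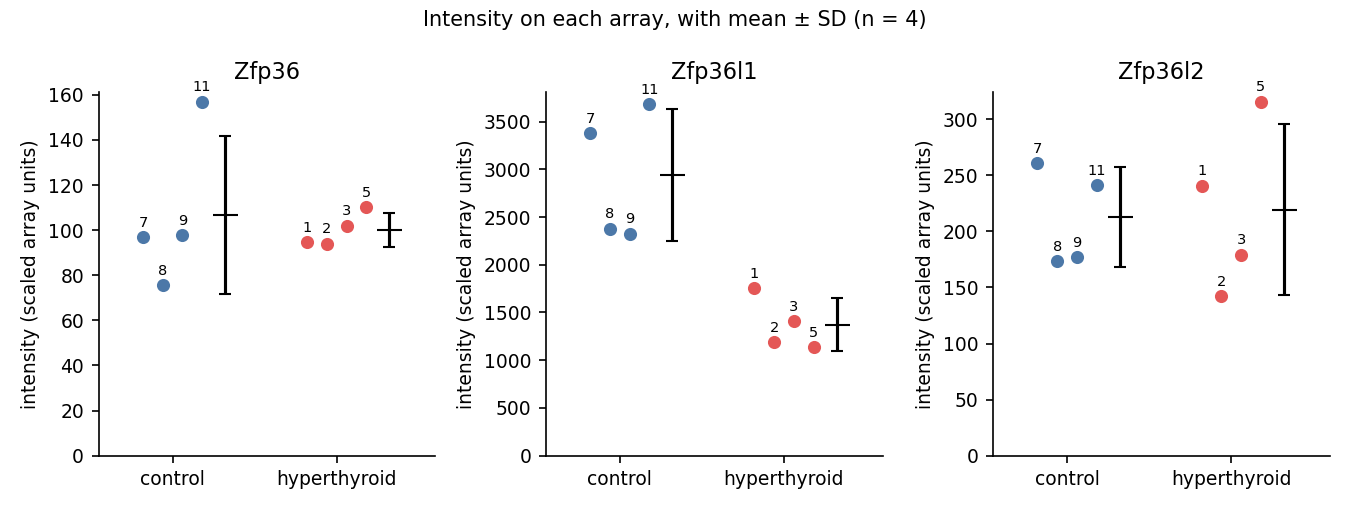
Intensity of the probe set that represents Zfp36, Zfp36l1 and Zfp36l2 (y axis, scaled array units) on each control (blue) and hyperthyroid (red) array, numbered by replicate, with the mean and SD of each group in black (n = 4). For Zfp36l1 the 4 hyperthyroid arrays lie between 1138 and 1755 and the 4 control arrays between 2326 and 3681, while the groups overlap for the other two.

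The family was chosen with this contrast in view, so these values are a description and carry no test of their own. In the fit across all features, no member was called (0 of 3 genes, beside 0.0686% of all genes), and at an unadjusted limma p under 0.05 the count was 1 of 3, Zfp36l1, beside 10.6% of all genes (5.21% lower and 5.38% higher). Groups that do not overlap were found for 1 of the 3 genes, beside 6.55% of all genes in either direction with 3.21% lower and 3.34% higher. By size, 211 of the 10200 genes (2.07%) had a log2 difference as low as that of Zfp36l1 or lower. Without variance moderated by level, or with any 1 array left out except hyperthyroid replicate 1, the family count stayed at 0. It was 1 of 3, again Zfp36l1, with a robust variance, with array weights, with no filter and without hyperthyroid replicate 1.

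Beside genes of a like signal level, the place of Zfp36l1 is again a description and no test, because the family was chosen with this contrast in view. Of the 375 genes whose mean log2 level lay within 0.5 of that of Zfp36l1, the median log2 difference was 0.03, and the values ran from -0.37 to 0.43 between the 5th and 95th percentiles. Groups that did not overlap, with the hyperthyroid arrays lower, were found in 11 of these 375 genes (2.93%). A difference as low as that of Zfp36l1 was found in 1 of them. This was Myl3, the slow and cardiac essential light chain, named here because of its value, with 2338 ± 2299 in hyperthyroid and 7364 ± 5553 in control muscle (SD, n = 4 each) and groups that overlapped.

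**Figure D2:**
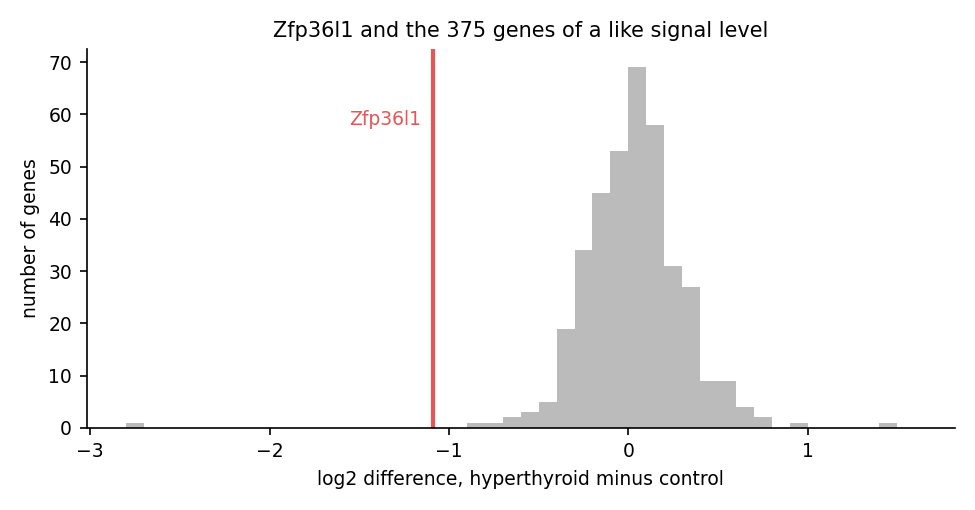
Histogram of the log2 difference, hyperthyroid minus control (x axis), of the 375 genes whose mean log2 level is within 0.5 of that of Zfp36l1 (y axis, number of genes in bins of 0.1), with Zfp36l1 as a red line. Zfp36l1 lies at -1.09, outside the 5th to 95th percentile range of -0.37 to 0.43, and 1 gene, Myl3, lies lower. The family was chosen with this contrast in view, so its place is a description.

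Among the controls, Zfp36l1 was highest on replicates 7 and 11. These 2 arrays were also the highest in slow-fibre genes, a list added after the data were seen. The summed intensity of its 5 genes was 20650 and 11172 there, against 1020 and 1146 on control replicates 8 and 9 and 406 to 1327 on the hyperthyroid arrays. All 5 genes had a log2 difference below 0 and an unadjusted limma p under 0.05, beside 5.21% of all genes lower. Their median was -3.27, none was called and 0 of the 5 had groups that did not overlap. The rank of replicates 7 and 11 was not particular to slow fibres, though the size of the difference varied between lists. Among controls, Schwann cell markers summed to 3182 and 2152 on replicates 7 and 11, against 389 and 504 on 8 and 9. Endothelial, macrophage, lymphocyte, neutrophil, adipocyte and erythroid sums were also highest on replicates 7 and 11. Those of myofibres, smooth muscle and mural cells, fibroblasts and satellite cells were not. Some of these steps were small, with endothelial sums of 1503 and 1785 on 7 and 11 against 1381 and 1291 on 8 and 9. Neutrophil and lymphocyte ranks carry little weight, with 0 of 4 and 1 of 6 markers past the filter. Most of the Schwann cell signal came from Pmp22, of the adipocyte signal from Fabp4 and of the erythroid signal from Hbb. Without control replicates 7 and 11 the log2 difference of Zfp36l1 was -0.80, and with 1 array left out at a time it ran from -1.21 to -0.97.

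Some technical measures differed with the groups as well, among 6 compared. The median intensity of an array was 40.3 ± 1.48 in the hyperthyroid group and 47.7 ± 4.90 in the controls, and the 100 brightest probe sets held 22.6% ± 1.18 and 26.6% ± 0.880 of the signal (SD, n = 4). Mean log2 signal of the hybridization controls was 11.2 ± 0.21 and 11.5 ± 0.09 (exact permutation p = 0.0571, adjusted p = 0.0856). The log2 ratio of the 3' to the 5' probe set of the Gapdh control, a measure of RNA length and labelling, averaged 0.34 ± 0.05 (SD) in the hyperthyroid group and 0.48 ± 0.06 in the controls. For it, the array median and the share of the brightest, the two-sided p from exact permutation was 0.0286 each, which is the lowest value possible with groups of 4, and 0.0572 after adjustment over the 6. The ratio of the actin control was 0.72 ± 0.17 against 0.87 ± 0.23 (exact permutation p = 0.4, adjusted p = 0.48). The hexokinase control gave 1.42 ± 1.42 against 1.81 ± 1.77 (exact permutation p = 0.714). Of the cell markers, the 8 of myofibres had sums that did not overlap, 217359 to 265299 on hyperthyroid and 268435 to 308637 on control arrays. Singly, 4 of the 8 lay lower without overlap, beside 3.21% of all genes, and 1, the parvalbumin gene Pvalb, had a positive log2 difference of 0.22 ± 0.18. Endothelial markers, 7 of 8 on the array and all 7 past the filter, overlapped, with sums of 1169 to 1639 and 1291 to 1785. All 7 of 7 smooth muscle and mural markers passed the filter and had log2 differences below 0, with a median of -0.41. At an unadjusted limma p under 0.05 there were 2 lower of 7, beside 5.21% of all genes. These were the pericyte gene Rgs5 at -0.78 ± 0.22 and Tagln at -0.79 ± 0.25. The sums of the 7 overlapped, 6468 to 9382 and 7982 to 9703. Most of that signal came from 1 marker, Des, at 6318 ± 1235 in hyperthyroid and 6796 ± 1151 in control muscle (SD, n = 4 each). The sums therefore say little of the other mural markers. The part of RNA quality, fibre content, endothelial and mural content in the level of Zfp36l1 was not tested.

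Zfp36, the founding member, had close group means. Its intensity was 94.7, 93.9, 101.9 and 110.3 on hyperthyroid replicates 1, 2, 3 and 5. It was 97, 75.6, 97.9 and 157 on control replicates 7, 8, 9 and 11. The groups overlapped, and both the highest and the lowest array were controls. The means were 100.2 ± 7.61 and 106.9 ± 34.99 (SD, n = 4 each), a log2 difference of -0.04 ± 0.27, so that the difference was smaller than the spread between control rats. The coefficient of variation was 7.6% among hyperthyroid and 32.7% among control rats. Without control replicate 11 the log2 difference was 0.15, and it had the opposite sign under 6 of 21 alternatives, among them centring on array medians (0.18).

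Within each group, the order of the arrays by Zfp36 was the order by summed fibroblast markers, a list named here because of that match. Some steps in that order were near ties. Zfp36 was at 93.9 and 94.7 on hyperthyroid replicates 2 and 1, and at 97.0 and 97.9 on control replicates 7 and 9. Across the groups the orders differed, as hyperthyroid replicate 5 had the highest sum and control replicate 11 the highest Zfp36. Control replicate 11 and hyperthyroid replicate 5 were the highest of their groups for Zfp36, and they were also the highest for the summed fibroblast markers (21897 and 33391). Control replicate 8 was lowest in both (75.6 for Zfp36 and 2935 for the sum of the markers). All 7 of 7 fibroblast markers passed the filter, and they summed to 4689 to 33391 on hyperthyroid and 2935 to 21897 on control arrays. The macrophage markers, 9 of 10 past the filter, summed to 516 to 1915 and 703 to 1795, again with control replicate 11 and hyperthyroid replicate 5 highest. Neutrophil markers were at low values, with 0 of 4 on the array past the filter, as were lymphocyte markers with 1 of 6. The part of these cells in the level of Zfp36 was not tested.

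Zfp36l2 was represented by the brightest of its 3 probe sets. Its intensity was 240.8, 142.3, 179.1 and 315.6 on hyperthyroid replicates 1, 2, 3 and 5. It was 260.9, 173.3, 177.1 and 241.0 on control replicates 7, 8, 9 and 11. The groups overlapped widely, with means of 219 ± 75.9 and 213 ± 44.5 (SD, n = 4 each) and a log2 difference of 0.00 ± 0.26. With 1 array left out at a time the log2 difference ran from -0.19 to 0.19.

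The other 2 probe sets of Zfp36l2 lay under the filter and disagreed with the first and with each other. The second brightest gave 51.9, 35.5, 6.16 and 31.7 on hyperthyroid replicates 1, 2, 3 and 5. The controls, replicates 7, 8, 9 and 11, gave 30.6, 2.96, 5.06 and 16.7. Its groups overlapped, with a log2 difference of 1.07 ± 0.78. The dimmest was at 1.85 to 7.38 on 7 of the 8 arrays and at 50.6 on control replicate 8. Its log2 difference was -0.73 ± 0.68, and -0.02 without control replicate 8. With all 3 probe sets averaged, Zfp36l2 had a log2 difference of 0.11. RefSeq also lists a pseudogene, Zfp36l2-ps1, and whether any probe set detects it was not tested.

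**Figure D3:**
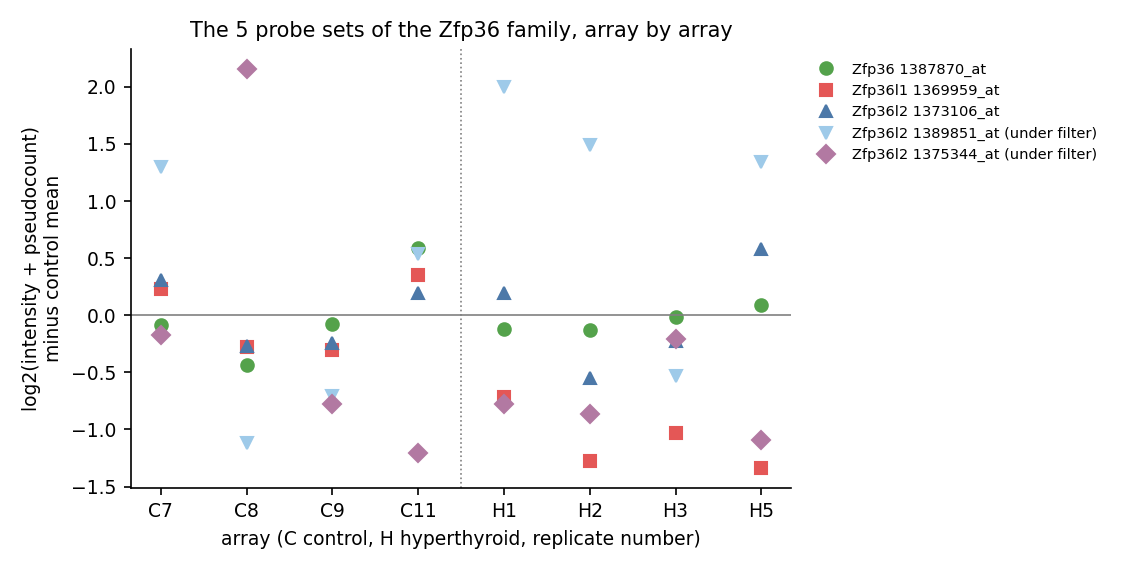
The 5 probe sets of the family on each array, as log2(intensity + 3.41) minus that probe set's control mean (y axis), with control (C) and hyperthyroid (H) arrays named by replicate on the x axis. The Zfp36l1 squares lie below 0 on all hyperthyroid arrays, the brightest Zfp36l2 probe set scatters about 0, and its 2 dim probe sets move apart from it.

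The genes whose pattern was most like that of each member differed between the members. The measure was Pearson's r of log2 values over the 8 arrays, given as a description, and part of any likeness to Zfp36l1 is the shared group difference. Closest to Zfp36l1 were Dele1 (r = 0.97), a mitochondrial stress signal, Nsmce1, a subunit of the SMC5/6 DNA repair complex (r = 0.96), Etfa of the electron transfer flavoprotein (r = 0.96), Coq6 of ubiquinone synthesis (r = 0.96) and Umps of pyrimidine synthesis (r = 0.95). Spearman's rho of the 5 ran from 0.9 to 0.98, and 48 of 10199 genes reached an r of 0.9. Their log2 differences ran from -0.68 ± 0.17 for Coq6 to -0.39 ± 0.17 for Umps, and none was called (limma adjusted p from 0.222 to 0.441).

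Closest to Zfp36 were Gask1b (r = 0.97), LOC103691468 (r = 0.97), the thrombin receptor gene F2r (r = 0.95), Erp29 of the endoplasmic reticulum (r = 0.95) and the fibrillar collagen gene Col3a1 (r = 0.94). Spearman's rho of the 5 ran from 0.74 for Gask1b to 0.98. Each of the 5 was highest on control replicate 11 and lowest on control replicate 8, so r rests in part on these arrays. LOC103691468 was dim, at 9.71 to 30.8 on all arrays but control replicate 11 (97.0). Erp29 ran from 132 to 272 and Col3a1 from 1141 on control replicate 8 to 10546 on control replicate 11. Closest to Zfp36l2 were Ankrd12 (r = 0.96), the cytokine gene Ctf1 (r = 0.92), the neonatal Fc receptor gene Fcgrt (r = 0.91), Kctd12 (r = 0.91) and Cdh15, the M-cadherin of muscle stem cells (r = 0.91). For these 5, Spearman's rho ran from 0.86 to 0.98. An r of 0.9 was reached by 23 genes for Zfp36 and by 6 for Zfp36l2.

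The deadenylation machinery that the family recruits was measured by 16 of 19 listed genes, all past the filter. None was called in either direction, beside 0.0686% of all genes. At an unadjusted limma p under 0.05 there were 2 higher and 1 lower of 16, beside 5.38% and 5.21% of all genes, and the median log2 difference was 0.06, against -0.00029 for all genes (-0.02 for the list without control replicates 7 and 11). Tob1, an adaptor that binds the CCR4-NOT deadenylases, had an intensity of 3145, 4345, 3826 and 3941 on hyperthyroid replicates 1, 2, 3 and 5. The controls, replicates 7, 8, 9 and 11, gave 5546, 5563, 5033 and 4836. All hyperthyroid arrays lay below all controls, with a log2 difference of -0.47 ± 0.13 (limma adjusted p = 0.239). Its relative Tob2 differed the other way by 0.33 ± 0.15, also without overlap (limma adjusted p = 0.454). Cnot1, the scaffold that the family's carboxyl end contacts, had 0.36 ± 0.17, and Cnot7, a catalytic deadenylase, had 0.57 ± 0.25 (limma adjusted p = 0.487 and 0.455). The value of Cnot7 was 0.31 without control replicate 11.

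Decapping factors, exonucleases and exosome subunits were measured by 22 genes past the filter, of 23 on the array and 27 listed. None was called, 12 were above 0 and 10 below, and the median was 0.09 (-0.02 without control replicates 7 and 11). Of all genes, 0.0686% were called. At an unadjusted limma p under 0.05 there were 3 higher and 0 lower of 22, beside 5.38% and 5.21% of all genes. Patl1, a decapping activator, had 156 ± 12.7 in hyperthyroid and 106 ± 13.3 in control muscle (SD, n = 4 each), without overlap, a log2 difference of 0.56 ± 0.21 (limma adjusted p = 0.367). Its other probe sets gave 0.40 ± 0.44 and, under the filter, -0.21 ± 0.76. Xrn1, which degrades decapped messages, had 0.44 ± 0.20 (limma adjusted p = 0.454), and its 2 other probe sets gave -0.08 and 0.31. Exosc1 of the exosome had 0.48 ± 0.20, and Skic2, its cytoplasmic helicase, 0.49 ± 0.26 (limma adjusted p = 0.441 and 0.543).

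Other proteins that bind AU-rich or related decay elements were measured by 13 genes past the filter of 14. None was called, beside 0.0686% of all genes, 9 were above 0 and 4 below, and the median was 0.09. Groups that did not overlap were found for 3 higher and 0 lower of 13, beside 3.34% and 3.21% of all genes. At an unadjusted limma p under 0.05 there were 2 higher and 0 lower of 13, beside 5.38% and 5.21% of all genes. Hnrnpd, or AUF1, which binds many of the same elements, gave 447, 496, 400 and 479 on hyperthyroid replicates 1, 2, 3 and 5. The controls, replicates 7, 8, 9 and 11, gave 311, 328, 255 and 355. All hyperthyroid arrays lay above all controls, with a log2 difference of 0.55 ± 0.16 (limma adjusted p = 0.266, and 0.0465 after scaling to hybridization controls, where its value was 0.87 while the median over all genes moved by 0.32). Its relative Hnrnpdl had 0.29 ± 0.12 (limma adjusted p = 0.441). Elavl1, or HuR, which stabilises such messages, had -0.18 ± 0.14, Khsrp -0.03 ± 0.17, Tial1 0.27 ± 0.14 and Tia1 -0.93 ± 0.57, none of them called (limma adjusted p = 0.664, 0.972, 0.536 and 0.586). The other Tia1 probe set, under the filter, gave 1.23 ± 0.66, and Tia1 was at -0.34 without hyperthyroid replicate 1. Other probe sets past the filter gave 0.05 and -0.29 for Elavl1 and 0.35 for Khsrp.

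The kinases, phosphatases and 14-3-3 proteins that act on the family were measured by 18 genes past the filter of 20. None was called, 10 were above 0 and 8 below, and the median was 0.07 (-0.0061 without control replicate 8). Of all genes, 0.0686% were called. At an unadjusted limma p under 0.05 there were 3 higher and 0 lower of 18, beside 5.38% and 5.21% of all genes. Mapk14, the main p38 kinase, had 0.07 ± 0.15 (limma adjusted p = 0.909). Mapkapk2, or MK2, had 662 ± 120 in hyperthyroid and 463 ± 90.1 in control muscle (SD, n = 4 each), a log2 difference of 0.52 ± 0.18 with overlapping groups (limma adjusted p = 0.348), and Mapkapk3 had 0.36 ± 0.20 (limma adjusted p = 0.564), or 0.23 without control replicate 11. Akt1 and Akt2, kinases that phosphorylate Zfp36l1, had 0.58 ± 0.18 and 0.58 ± 0.19 without overlap (limma adjusted p = 0.296 and 0.311). Their other probe sets past the filter disagreed, with 0.39 and -0.44 for Akt1 and 0.18, -1.37 and 0.35 for Akt2. Dusp1, the phosphatase that ends p38 signalling, had -0.29 ± 0.26 (limma adjusted p = 0.737), while its other probe set past the filter gave 0.32 ± 0.38. Without control replicate 11 Dusp1 was at -0.09, without control replicate 7 at -0.15 and without hyperthyroid replicate 5 at -0.13.

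Of 30 transcripts reported in other systems as targets of the family, 29 were on the array and 15 passed the filter. Of the inflammatory targets, Tnf was at 13.5 ± 8.42 in hyperthyroid and 6.83 ± 3.23 in control muscle and Il6 at 12.4 ± 13.97 and 22.1 ± 21.0 (SD, n = 4 each), under the filter at an intensity of about 22.4. Myc was also under the filter, at 24.8 ± 21.1 and 12.03 ± 15.3. Of the 15 measured, none was called, beside 0.0686% of all genes, 6 were above 0 and 9 below, and the median was -0.25. At an unadjusted limma p under 0.05 there were 1 higher and 0 lower, beside 5.38% and 5.21% of all genes. The median of the list was 0.07 after scaling to hybridization controls, 0.03 with all probe sets of a gene averaged and 0.002 without control replicates 7 and 11.

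The values of single targets lay on both sides of 0. Vegfa, the vascular growth factor and a reported target of Zfp36l1, had 742 ± 336 in hyperthyroid and 999 ± 410 in control muscle (SD, n = 4 each), with a log2 difference of -0.49 ± 0.35 (limma adjusted p = 0.653), while its other probe set past the filter gave 0.54 ± 0.32. Vegfa was at -0.13 without hyperthyroid replicate 5 and at -0.24 without control replicate 7. Myod1 had 828 ± 287 and 668 ± 235, with 0.30 ± 0.30 (limma adjusted p = 0.761), or 0.12 without control replicate 11 and 0.58 without hyperthyroid replicate 5. Plau, the urokinase, had 0.97 ± 0.44 (limma adjusted p = 0.465), and its other probe set gave 0.01. Without control replicate 8 Plau was at 0.48. Plk3, a stress kinase, had 35.2 ± 11.6 against 60.2 ± 8.84 (SD, n = 4 each) without overlap, with -0.77 ± 0.40 (limma adjusted p = 0.532). Hif1a, the hypoxia factor, had 0.24 ± 0.16 (limma adjusted p = 0.629).

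Immediate-early genes, the class to which Zfp36 belongs, were measured by 20 genes past the filter, of 25 on the array and 26 listed. None was called, beside 0.0686% of all genes, 14 were above 0 and 6 below, and the median was 0.14. That median was -0.01 without control replicate 8. At an unadjusted limma p under 0.05 there were 0 higher and 2 lower of 20, beside 5.38% and 5.21% of all genes. Fos had 0.52 ± 0.71, Egr1 0.10 ± 0.35 and Junb 0.03 ± 0.69, and Fos and Junb were dim, with hyperthyroid means of 81.3 and 34.5 (limma adjusted p = 0.834, 0.949 and 0.992). Fos was at 5.28 on control replicate 8 and had -0.36 without it, and Egr1 and Junb also changed sign with single arrays left out. Ier2 had 18.4 ± 10.6 in hyperthyroid and 50.4 ± 16.9 in control muscle (SD, n = 4 each), a log2 difference of -1.41 ± 0.61 (limma adjusted p = 0.441). Ier2 was dim as well, at 4.77 on hyperthyroid replicate 5, and its groups overlapped. Klf6 had -0.50 ± 0.19 (limma adjusted p = 0.385), with 0.19 and 0.40 from its other probe sets. Nr4a3, a nuclear receptor that exercise induces, had 1.03 ± 0.48 (limma adjusted p = 0.476), or 0.58 without hyperthyroid replicate 2.

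Glucocorticoids also raise members of the family, and their responsive genes were measured by 9 past the filter, of 10 on the array and 11 listed. None was called, beside 0.0686% of all genes, and 0 of 9 had an unadjusted limma p under 0.05, beside 10.6%. Of the 9, 7 were above 0 and 2 below, with a median of 0.15. Ddit4, a stress-responsive brake on mTOR, had 0.67 ± 0.34, Mt2A, a metallothionein, 0.55 ± 0.28, Sgk1, a kinase, 0.35 ± 0.21 and Tsc22d3, a glucocorticoid-induced zipper protein, 0.15 ± 0.14 (limma adjusted p = 0.512, 0.518, 0.58 and 0.733). Ddit4 was at 0.33 without hyperthyroid replicate 5, and Sgk1 at 0.20 without control replicate 7.

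**Figure D4:**
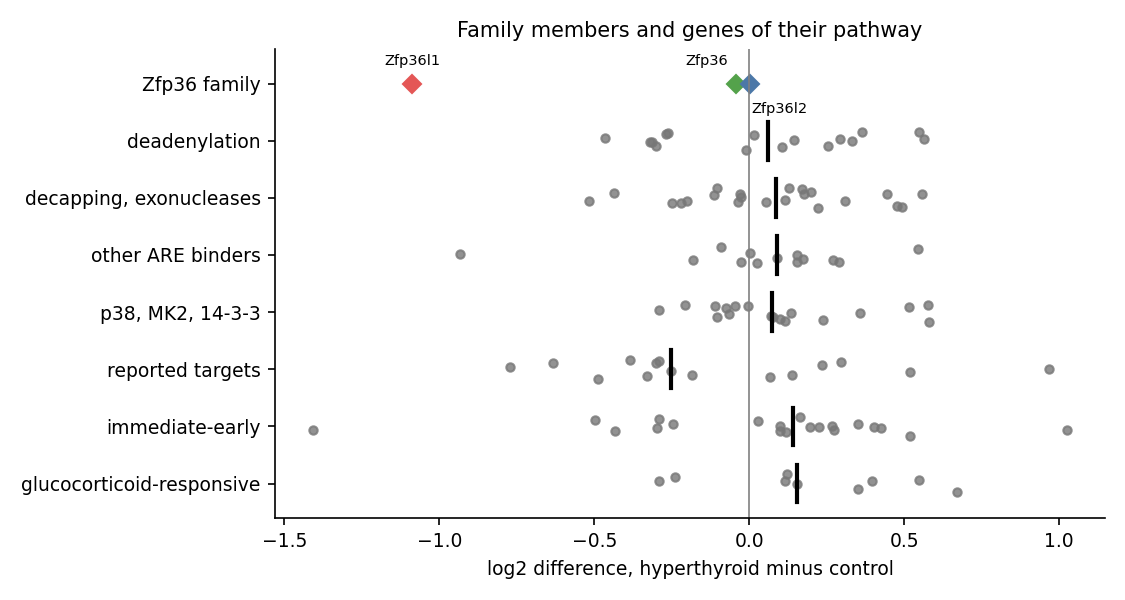
Log2 difference, hyperthyroid minus control (x axis), of the 3 family members (diamonds, top) and of each gene past the filter in 7 lists of the pathway (grey points, vertical jitter only), with the list median as a black bar. Zfp36l1 lies at -1.09, the medians of 6 lists between 0.06 and 0.15 and that of the reported targets at -0.25. None of the genes shown was called.

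**Figure D5:**
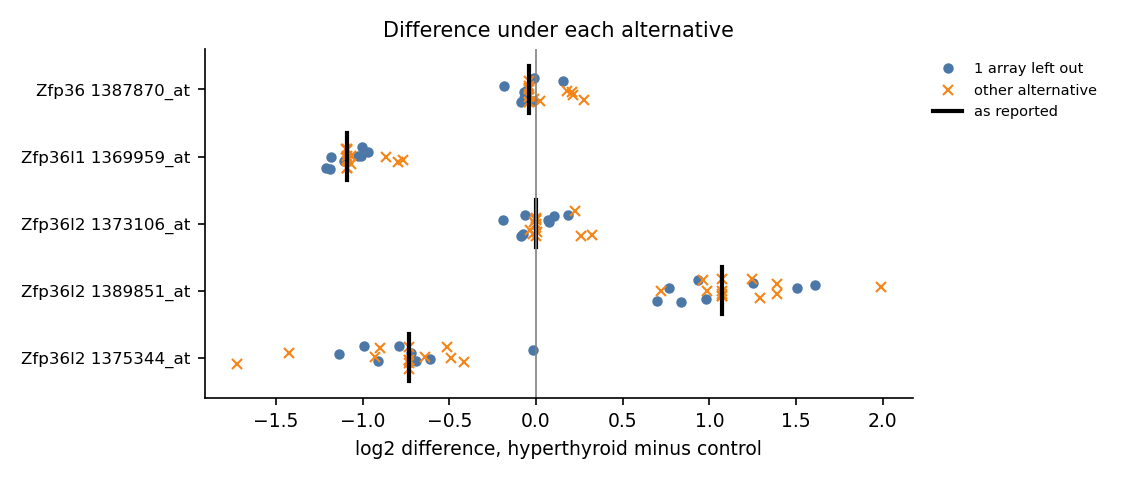
Log2 difference, hyperthyroid minus control (x axis), of each of the 5 probe sets (y axis) as reported (black bar), with 1 array left out (blue circles) and under the other alternatives (orange crosses). Zfp36l1 stays below 0 throughout, from -1.21 to -0.77, while Zfp36 and the brightest Zfp36l2 probe set lie on both sides of 0.

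Across 21 alternatives in processing, the direction of Zfp36l1 did not change. Its log2 difference ran from -1.21 to -0.77, and the value nearest 0 came from scaling to hybridization controls, which moved the median of all genes by 0.32. The dim probe sets of Zfp36l2 also kept their directions, from 0.70 to 1.99 for the second brightest and from -1.73 to -0.02 for the dimmest, so that the signs of these dim probe sets remained opposite. Both lay under the filter, and the dimmest was at -0.02 without control replicate 8, so these directions carry little weight.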

How the data were processed

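The values the authors deposited are intensities, not log-transformed. The submitters' processing notes name GCOS, with no version, and its settings were not known here. The mean of each array was 150 after 2% of the values were left out at each end, as after scaling to 1 target. First strands were primed with oligo(dT), per the labels' protocols, which favours the 3' part of a message.

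Of 31099 probe sets, 57 controls were set aside, and 20826 of the rest carried 1 gene symbol, 436 several and 9780 none. RefSeq (GRCr8) matched 20758 by Entrez identifier, and promoter sequences of all 3 members were found there. Values were analysed as log2(intensity + 3.41), where 3.41 is the 10th percentile of all values, and fold changes on that scale understate those of low genes. Probe sets with a mean log2 value above 4.69, the 40th percentile, were tested with limma 3.58.1 in R 4.3.3 (lmFit, eBayes with trend, two-sided, Benjamini-Hochberg at 0.05), 18625 as probe sets and 10200 as genes, each by its brightest probe set. The fit was also run on simulated data with independent normal noise for each gene and array. That run does not cover arrays that stand apart, as control replicates 9 and 11 did. Technical measures were compared by exact permutation over 70 splits.

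The members and lists were chosen with earlier results of these data known. Named genes were all member probe sets, up to 4 genes of each list by smallest p, a set named whatever their values, and the 5 genes most like each member. Of that set, Dcp2 and Btg2 were not analysed here. Alternatives were other scalings, pseudocounts, filters, variance models, array weights, averaged probe sets and arrays left out. The number of arrays limits the precision.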

Additional observations from a re-analysis of the deposited data

Results flagged for a closer look

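A single array far from the 3 others of its group was seen in 5 of 98 groups of 4 examined (gap to the nearest array over the range of the group, above Dixon's critical value), and chance gives about 1 in 20. One was a member: the dimmest Zfp36l2 probe set stood at 50.6 on control replicate 8 (0.887 of the range). Xrn1 stood at 245 on control replicate 7 (0.888), Ddit4 at 307 on hyperthyroid replicate 5 (0.922) and Tsc22d3 at 1410, the low end, on hyperthyroid replicate 3 (0.833). The mean log2 signal of 18 hybridization control probe sets stood at 11.5 on hyperthyroid replicate 2 (0.891), above the other hyperthyroid arrays.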

How the results depend on the processing

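No paired analysis was possible because the groups share no replicate number. After scaling to hybridization controls, Zfp36 stood at 0.28 and Zfp36l1 at -0.77, while the median of all genes moved to 0.32 (0.22 after centring on array medians). Leaving out 1 array gave ranges of -0.19 to 0.15 for Zfp36 and -1.21 to -0.97 for Zfp36l1. Family members called were 1 in place of 0, at both probe set and gene level, with no filter, robust variance and array weights, and at gene level from 0 to 1 with 1 array left out. Genes called higher, 7 as reported, were 12 after centring, 114 after scaling to hybridization controls, 0 with no variance trend, 1 with probe sets averaged, 3 without control replicates 7 and 11, 0 without 9 and 11, and 0 to 7 with 1 array left out. Probe sets called higher, 6 as reported, were 19 after centring, 118 after scaling to hybridization controls, 15 with no filter, 0 with no variance trend, 12 with a robust variance, 1 without control replicates 7 and 11, 0 without 9 and 11, and 0 to 5 with 1 array left out. Called lower were 1 gene and 1 probe set with no filter, 4 and 10 with a robust variance, 1 and 1 with array weights, and 0 to 1 genes with 1 array left out. The causes were not tested.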
